A study of Mus musculus with 36 samples.

Results

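At 2 h of IL-1β, 3 libraries of a mouse fibroblast-like chondrocyte line transfected with siRNA against *Ift88* (IFT88siRNA) were compared with 3 libraries of the same line transfected with a non-targeting siRNA pool (NT). These 6 libraries were chosen by their labels (siRNA and time point) out of 36 in all, which cover 12 conditions with 3 replicates each. Both groups were wild-type cells that had grown to confluence after transfection and then received 10 ng/ml IL-1β for 2 h, so the groups differed in the siRNA and shared the cytokine. The cells were a single conditionally immortalised line, which limits them as a model of primary cartilage cells. The labels give the siRNA at 50 nM and the methods at 10 nM, and neither says whether replicates were separate cultures, so that p-values measure the spread between these libraries, which may be technical. The comparison asked which transcripts differed with depletion of IFT88 while the early response to the cytokine was under way.

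IFT88 is a subunit of the IFT-B complex, which carries cargo along the axoneme of the primary cilium and also has roles outside the cilium. IL-1β binds the IL-1 receptor and its accessory protein, and signals through MyD88, IRAK kinases and TRAF6 to the IKK complex, which releases NFκB dimers such as p65/p50 into the nucleus, and to the MAP kinases, which activate AP-1. In chondrocytes and fibroblasts, IL-1β is known to raise chemokines, leukocyte adhesion molecules, prostaglandin and nitric oxide synthesis and matrix proteases, and NFκB also raises its own inhibitors.

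The 6 libraries held between 21051739 and 27099885 counts on genes. The 3 NT libraries were at 21051739, 24427064 and 24494947 and the 3 IFT88siRNA libraries at 26529121, 23846816 and 27099885. Levels are given as CPM (counts scaled to library size), scaled with TMM over all 36 libraries, and a fold change is the IFT88siRNA level over the NT level on the log2 scale, from a fit of the 6 libraries. A gene was called lower or higher when the adjusted p-value of edgeR's quasi-likelihood test was under 0.05 and the fold change was over 1.5. Fibroblast markers were abundant in the 6 libraries, with all 12 of 12 tested and a summed level between 14657 and 17161 CPM. Of 10 chondrocyte markers, 6 passed the filter, among them *Col11a1*, *Comp*, *Hapln1* and *Sox9*. In contrast, *Acan* (aggrecan), *Col9a1*, *Matn3* and *Cnmd* were each at a mean below 1 CPM, and these defining cartilage genes were at or near 0 in a line labelled as chondrocytes. The chondrocyte markers summed to between 523 and 577 CPM in NT and between 464 and 500.1 CPM in IFT88siRNA, and the fibroblast markers to between 15984 and 17161 CPM and between 14657 and 15175 CPM. Of the 12 fibroblast markers, 5 had a log2 fold change below 0 and the median was 0.05. *Fn1*, the fibronectin gene and the largest part of that sum, was at 8733, 8258 and 8162 CPM in NT and at 6014, 6514 and 7140.3 CPM in IFT88siRNA (−0.36, adjusted p = 0.0106). The part of cell makeup in the results was not tested. Macrophage, endothelial, muscle, epithelial and adipocyte markers each summed to under 20 CPM in every library, with *Tyrobp*, *Tie1*, *Lep* and *Cidec* at 0 counts in all 6. In such bulk samples, fewer cells of a type and less RNA per cell cannot be told apart. NT replicate 2 stood apart most from its group, with an SD of 0.133 for its log2 deviations from the group mean against 0.0816 and 0.108 for the other NT libraries.

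*Ift88*, on chromosome 14 (GRCm38, 57424062 to 57517936, plus strand), was at 7.88, 8.20 and 8.35 CPM in the NT libraries and at 1.67, 1.92 and 2.02 CPM in the IFT88siRNA libraries. The groups did not overlap, and the transcript fell to 22.9% of the NT level (log2 fold change −2.12, standard error 0.133, adjusted p = 3.89e-05). The targeted gene thus went with the labels of all 6 libraries. Among the 17 tested genes of the IFT-B complex, *Ift88* alone was called, and the median log2 fold change was −0.05. *Ift80*, *Ift74*, *Ift81*, *Ift172* and *Ift52*, which encode other IFT-B subunits, had log2 fold changes between −0.13 and 0.12 with adjusted p-values between 0.18 and 0.637. None of 19 tested genes of the IFT-A complex, kinesin-2 and dynein-2 was called (median −0.01), and none of 32 genes of the BBSome and transition zone (median −0.05). No member of 15 Hedgehog pathway genes was called either, with *Ptch1* at −0.11 (adjusted p = 0.402) and *Gli1* at 0.12 (adjusted p = 0.886). 

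Of 14728 genes tested at 2 h, 68 were lower in IFT88siRNA (0.462% of those tested) and 5 were higher (0.0339%). Without the fold threshold, 284 genes were lower (1.93%) and 123 were higher (0.835%). The median log2 fold change of all tested genes was 0.00 and 48.9% of them were below 0. The 68 lower genes were made up of 64 protein-coding genes, the long noncoding RNAs *H19* and *Malat1*, the antisense gene *Gm16685* and the unclassified transcript *Gm45640*. In all 73 called genes the 3 libraries of one group lay wholly above those of the other. Separation of the groups alone was common, since 11% of all tested genes were lower without overlap and 11.1% were higher without overlap. The counts moved when 1 library was left out. There were 190 lower and 18 higher genes without NT replicate 2, 27 and 1 without NT replicate 1, and 35 lower genes without NT replicate 3. There were 21 lower and 1 higher without IFT88siRNA replicate 2, and 32 and 1 without IFT88siRNA replicate 1. Counting without strand mixes reads of overlapping genes, and 9 of the called genes overlapped a tested gene on the other strand, among them *Icam1*, *Fgf2* and *Col10a1*.

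**Figure D1:**
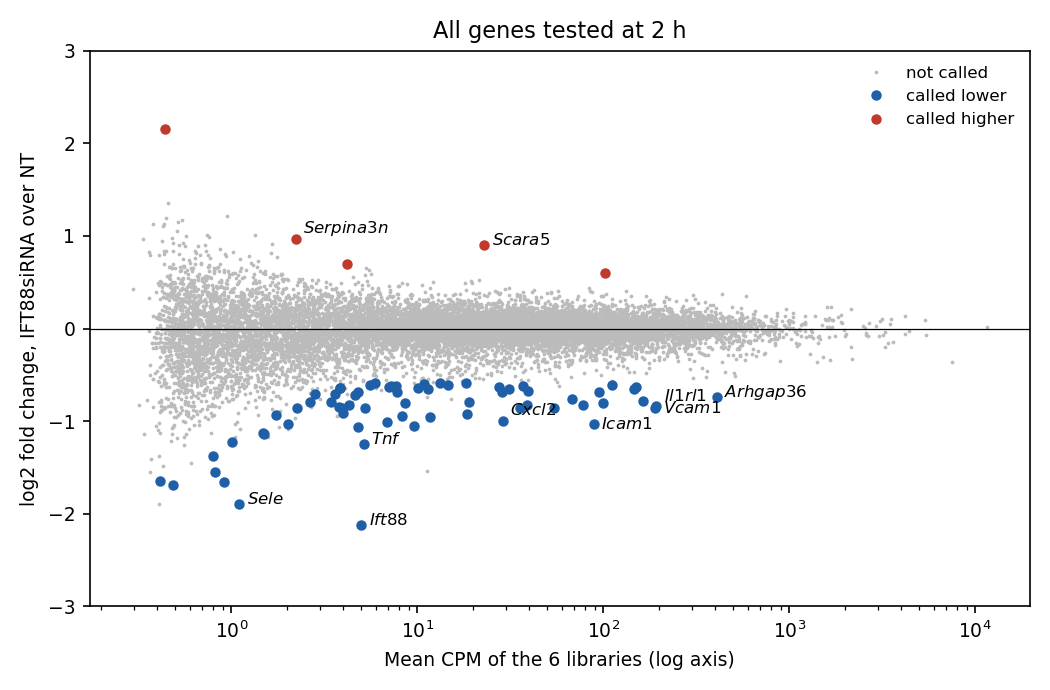
Log2 fold change of IFT88siRNA over NT at 2 h (vertical axis) against the mean CPM of the 6 libraries (horizontal log axis) for the 14728 genes tested, 1 point per gene. The 68 genes called lower are blue and reach −2.12 at *Ift88*, and the 5 called higher are red.

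Leukocyte adhesion molecules, which endothelium and activated fibroblasts display to bind integrins and selectin ligands on white cells, held 3 called genes. Of 9 tested members, 3 were lower, beside 0.462% of all tested genes. None was higher, and the median was −0.17. *Icam1*, the ligand of the integrin LFA-1, lies on chromosome 9 (21015985 to 21028817) and was at 129.5, 101.2 and 127.6 CPM in NT against 61.5, 49.3 and 64.4 CPM in IFT88siRNA. The highest IFT88siRNA library was well below the lowest NT library, and the log2 fold change was −1.03 (standard error 0.105, adjusted p = 0.00059). *Vcam1*, the ligand of the integrin VLA-4, was at 246.5, 209.6 and 275.9 CPM in NT and at 147.6, 116.6 and 140.5 CPM in IFT88siRNA. Again the groups did not overlap, with a log2 fold change of −0.86 (standard error 0.098, adjusted p = 0.0013). *Sele*, the gene of E-selectin, was rare, at 1.72, 1.55 and 1.96 CPM in NT and at 0.71, 0.321 and 0.363 CPM in IFT88siRNA, and fell by 1.89 on the log2 scale (standard error 0.302, adjusted p = 0.00843). The call of *Sele* was lost without NT replicate 1 (adjusted p = 0.0559) or IFT88siRNA replicate 2 (adjusted p = 0.0638). The other members included *Cd44*, the hyaluronan receptor, at −0.15 (adjusted p = 0.07), and *Cd47* at −0.09 (adjusted p = 0.325).

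**Figure D2:**
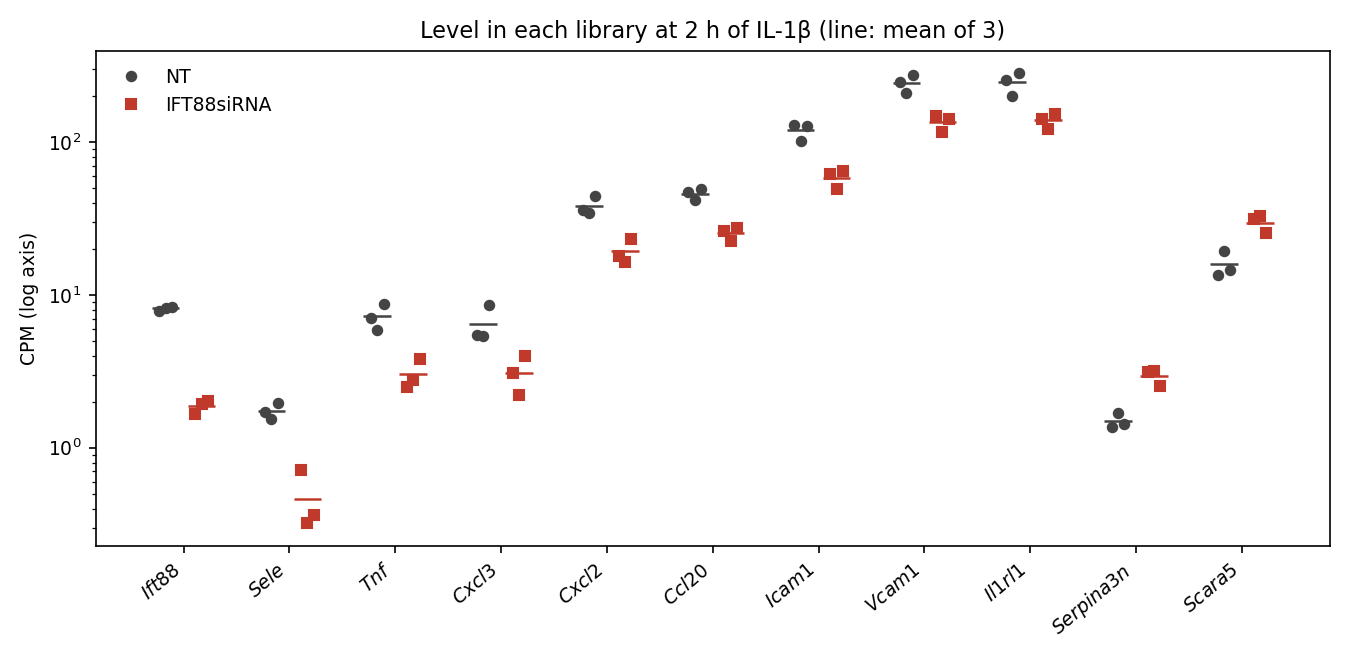
CPM (log axis) of 11 genes in each of the 6 libraries at 2 h, with NT as grey circles, IFT88siRNA as red squares and a line at the mean of 3. For each gene the 2 groups do not overlap, and *Icam1* sits between 101.2 and 129.5 CPM in NT and between 49.3 and 64.4 CPM in IFT88siRNA.

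Among the chemokines, *Cxcl2* and *Cxcl3*, which draw neutrophils through CXCR2, and *Ccl20*, the ligand of CCR6, fell. *Cxcl2* was at 36, 34.6 and 44.3 CPM in NT and at 18.0, 16.4 and 23.3 CPM in IFT88siRNA, which is 50.2% of the NT level (log2 fold change −0.99, standard error 0.126, adjusted p = 0.00298). *Cxcl3* was at 5.48, 5.38 and 8.53 CPM against 3.09, 2.20 and 4.0 CPM (−1.06, standard error 0.228, adjusted p = 0.033). *Ccl20* was at 46.8, 41.6 and 49.4 CPM against 26.3, 22.3 and 27.5 CPM (−0.86, standard error 0.0861, adjusted p = 0.00059). For all 3 genes the lowest NT library was above the highest IFT88siRNA library. The call of *Cxcl3* was lost without NT replicate 1, NT replicate 3, IFT88siRNA replicate 1 or IFT88siRNA replicate 2, with adjusted p-values between 0.0927 and 0.164.

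Other chemokines differed by less. The neutrophil chemokine *Cxcl1* was at 736 ± 41.0 (SD, n = 3) CPM in the NT libraries and 624 ± 65.5 CPM in the IFT88siRNA libraries and had a log2 fold change of −0.24 (adjusted p = 0.0943), and the monocyte chemokine *Ccl2* was at 1186 ± 56.1 CPM and 1121 ± 26.3 CPM (−0.09, adjusted p = 0.368). *Ccl7*, another monocyte chemokine, was at 248 ± 8.26 CPM and 282 ± 18.3 CPM, with a log2 fold change of 0.18 (adjusted p = 0.102). *Ccl9* (−0.55, adjusted p = 0.0167), *Cxcl16* (−0.40, adjusted p = 0.033) and *Ccl5* (−0.38, adjusted p = 0.0472) were lower but under the fold threshold. Over the lists, 2 of 12 tested CXC chemokines and 1 of 11 tested CC and CX3C chemokines were lower and none was higher, with medians of −0.31 and −0.20. Of all tested genes, 0.462% were called lower.

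Promoters of these chemokine and adhesion genes are shown because NFκB is the factor that the receptor activates and the listed promoters could be searched for its motif. The sequences are RefSeq's for GRCm38.p6, from 250 bases before to 50 bases after the annotated start, 5′ to 3′ on the plus strand on which all 4 genes lie. Capitals mark matches to GGNNTTTCC, the letters searched for NFκB, on either strand. The windows are chr9:21015690-21015989 for *Icam1*, chr5:90903649-90903948 for *Cxcl2*, chr5:90785851-90786150 for *Cxcl3* and chr1:83116516-83116815 for *Ccl20*.
Icam1: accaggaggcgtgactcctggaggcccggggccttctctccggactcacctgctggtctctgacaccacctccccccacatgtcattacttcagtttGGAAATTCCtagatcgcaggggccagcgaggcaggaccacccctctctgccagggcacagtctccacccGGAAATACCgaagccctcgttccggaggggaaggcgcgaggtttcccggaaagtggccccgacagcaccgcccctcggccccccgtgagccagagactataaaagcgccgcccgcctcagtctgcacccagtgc
Cxcl2: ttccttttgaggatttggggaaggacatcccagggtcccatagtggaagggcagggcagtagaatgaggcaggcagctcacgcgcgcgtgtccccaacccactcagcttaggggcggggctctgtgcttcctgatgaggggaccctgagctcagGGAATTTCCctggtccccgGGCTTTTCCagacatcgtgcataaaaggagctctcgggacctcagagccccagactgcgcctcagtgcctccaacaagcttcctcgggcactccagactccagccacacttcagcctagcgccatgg
Cxcl3: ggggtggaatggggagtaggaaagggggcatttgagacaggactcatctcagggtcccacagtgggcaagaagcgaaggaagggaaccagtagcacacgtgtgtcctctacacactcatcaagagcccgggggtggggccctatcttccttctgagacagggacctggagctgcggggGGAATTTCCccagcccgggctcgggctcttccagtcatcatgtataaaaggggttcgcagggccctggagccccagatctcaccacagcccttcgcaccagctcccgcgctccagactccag
Ccl20: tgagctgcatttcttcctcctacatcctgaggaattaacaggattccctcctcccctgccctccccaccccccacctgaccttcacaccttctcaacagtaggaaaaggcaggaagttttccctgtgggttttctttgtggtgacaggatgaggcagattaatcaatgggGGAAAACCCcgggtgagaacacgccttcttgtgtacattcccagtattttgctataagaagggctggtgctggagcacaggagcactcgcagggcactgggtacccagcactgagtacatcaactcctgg

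*Icam1* held matches that began 153 and 84 bases before its start, *Cxcl2* 96 and 77 bases, *Cxcl3* 72 bases and *Ccl20* 80 bases before it. A promoter was found by symbol for 10256 of the 14728 tested genes and for 49 of the 73 called genes, and some genes had several. At least 1 match to the NFκB letters stood in 10 of 62 promoters of lower genes (16.1%), against 820 of 13108 promoters of all tested genes (6.26%). The other lower genes with a match were *Gbp5*, *Ccrl2*, *Il18rap*, *Il1rl1*, *P2ry14* and *Tex52*. Of the promoters of higher genes, 1 of 3 held a match, at *Serpina3n*, 170 bases before its start. TGANTCA, the letters for AP-1, stood in 7 of 62 promoters of lower genes (11.3%) and in 5.42% of all, and TGACGTCA, the CRE, in 1 of 62 (1.61%) and in 2.98% of all. The search covered only these windows of fixed length, and the windows of *Tnf* and *Sele* held no match to the NFκB letters. Genes that IL-1β raised in NT at 1 h or 4 h but that were not called at 2 h held the NFκB letters in 220 of 2724 promoters (8.08%), against 9 of 35 promoters (25.7%) for those that were raised and called lower. These shares are descriptions and were not tested.

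Of 22 tested cytokines and colony-stimulating factors, 2 were called lower and none higher, beside 0.462% and 0.0339% of all tested genes. The log2 fold change was below 0 in 18 of the 22, with a median of −0.28, beside 48.9% of all tested genes below 0. *Tnf*, which signals to NFκB through its own receptors, was at 7.04, 5.92 and 8.75 CPM in NT and at 2.51, 2.79 and 3.83 CPM in IFT88siRNA. The groups did not overlap, and *Tnf* fell to 42.1% of the NT level (log2 fold change −1.25, standard error 0.188, adjusted p = 0.00671). The call was lost without IFT88siRNA replicate 1 (adjusted p = 0.0535) or IFT88siRNA replicate 2 (adjusted p = 0.0545), while the log2 fold change stayed at −1.12 and −1.19. *Il15*, a cytokine of T and NK cells, was at 8.14, 7.97 and 9.51 CPM against 6.06, 4.53 and 6.01 CPM (−0.63, adjusted p = 0.0314), and its call was lost without any 1 of NT replicates 1 and 3 and IFT88siRNA replicates 1 and 2 (adjusted p between 0.102 and 0.158). *Il6* was at 13.9, 9.61 and 17.4 CPM in NT and at 9.40, 6.14 and 12.4 CPM in IFT88siRNA, so the groups overlapped, and the log2 fold change of −0.54 did not pass (standard error 0.235, adjusted p = 0.263). *Lif* (−0.13, adjusted p = 0.49) and *Csf1* (−0.07, adjusted p = 0.428) did not pass.

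The genes of prostaglandin and nitric oxide synthesis had no called member among 16 tested, with a median of −0.10. *Nos2*, the inducible nitric oxide synthase, was at 19.5, 7.25 and 23.5 CPM in NT and at 5.05, 2.89 and 9.16 CPM in IFT88siRNA. The spread within NT was wide, the lowest NT library lay below the highest IFT88siRNA library, and the log2 fold change of −1.54 did not pass (standard error 0.405, adjusted p = 0.0714). *Slc7a2*, which imports arginine, the substrate of nitric oxide synthase, was at 428, 390 and 440 CPM against 302, 273 and 303 CPM without overlap (−0.52, standard error 0.0561, adjusted p = 0.000876), under the fold threshold. *Ptgs2*, which encodes cyclooxygenase-2, was at 792, 784 and 853 CPM against 657, 644 and 722 CPM (−0.27, standard error 0.0537, adjusted p = 0.0242).

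The list of IL-1 receptors and their signalling chain had 1 called gene among 18 tested and a median of 0.01. That gene was lower, beside 0.462% of all tested genes called lower. *Il1rl1*, which encodes the IL-33 receptor ST2 and a soluble decoy form, was at 256.5, 200.4 and 281.8 CPM in NT and at 142, 121 and 152 CPM in IFT88siRNA, and fell to 56.1% of the NT level (log2 fold change −0.83, standard error 0.11, adjusted p = 0.00377). *Il18rap*, the accessory protein of the IL-18 receptor, belongs to the same receptor family but not to the list, and is named after its values were seen. It was called lower too, at 5.48, 4.19 and 5.55 CPM against 2.71, 2.29 and 3.35 CPM (−0.86, adjusted p = 0.0254). The receptor *Il1r1* (98.3 ± 7.15 CPM in NT and 79.9 ± 6.97 CPM in IFT88siRNA, −0.30, adjusted p = 0.0447) and its accessory protein *Il1rap* (160.4 ± 8.16 CPM and 116 ± 5.28 CPM, −0.47, adjusted p = 0.0013) were lower under the fold threshold, as was *Ube2n*, the E2 enzyme that works with TRAF6 (−0.30, adjusted p = 0.00796). The adaptors and kinases below the receptor did not pass. They include *Myd88* (0.10, adjusted p = 0.36), *Irak1* (−0.12, adjusted p = 0.198), *Traf6* (0.08, adjusted p = 0.571) and *Map3k7*, the gene of TAK1 (0.03, adjusted p = 0.829).

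None of 14 genes of NFκB subunits and the IKK complex was called (median −0.05). *Rela*, the gene of p65, was at 394, 387 and 387 CPM in NT and at 289, 289.7 and 290.4 CPM in IFT88siRNA. These values were tight and well apart, yet the log2 fold change of −0.43 (standard error 0.0393, adjusted p = 0.000285) was under the fold threshold. *Nfkb1* (−0.16, adjusted p = 0.0901), *Nfkb2* (−0.15, adjusted p = 0.21), *Relb* (−0.07, adjusted p = 0.516), *Rel* (−0.05, adjusted p = 0.658) and the kinase genes *Chuk* (0.04, adjusted p = 0.737) and *Ikbkb* (0.12, adjusted p = 0.33) did not pass. Of 15 inhibitors and feedback genes of NFκB none was called (median −0.09). *Nfkbia*, the gene of IκBα, was at 329, 326 and 337 CPM in NT and at 351, 340.3 and 377 CPM in IFT88siRNA, with a log2 fold change of 0.11 (adjusted p = 0.285). *Tnfaip3*, the gene of the deubiquitinase A20, was at 596 ± 11.4 CPM and 544 ± 7.67 CPM (−0.14, adjusted p = 0.105). *Nfkbie*, the gene of IκBε, was lower at 89.2 ± 2.81 CPM against 112 ± 5.91 CPM (−0.32, adjusted p = 0.008), under the fold threshold.

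**Figure D3:**
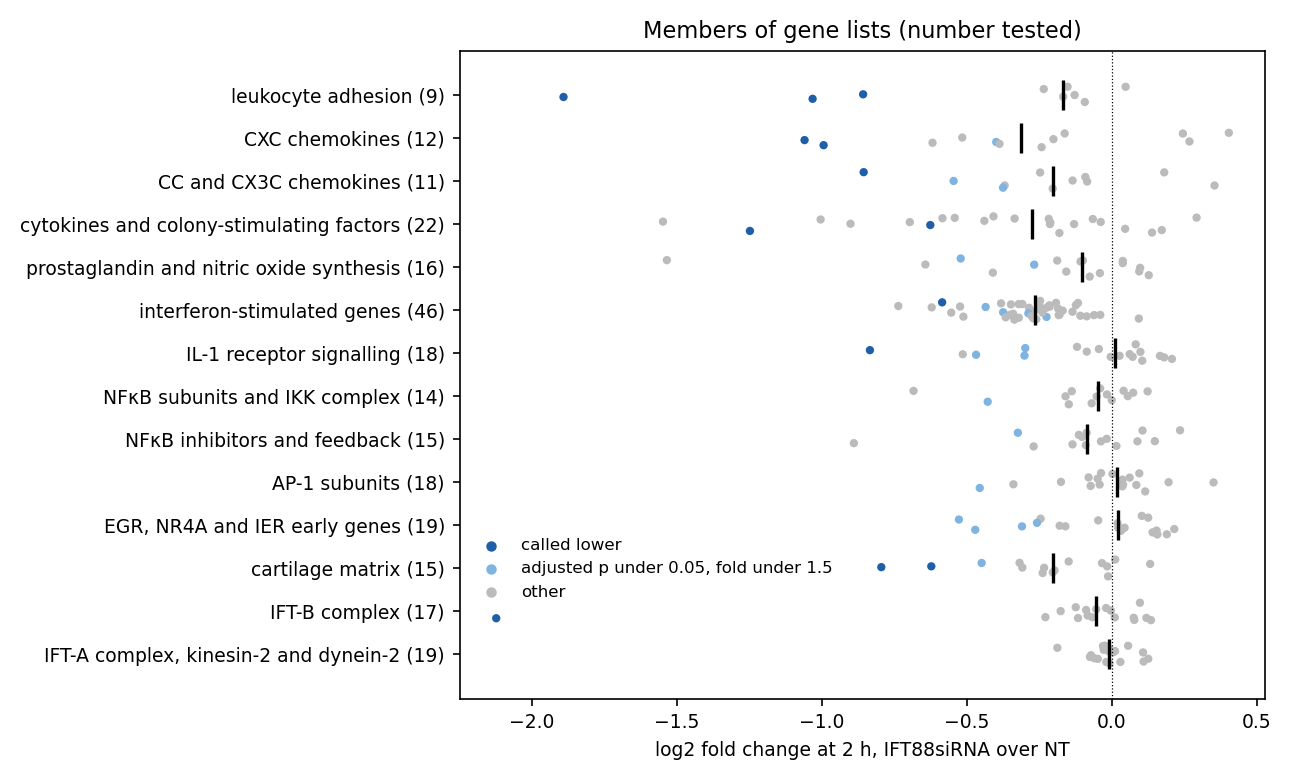
Log2 fold change at 2 h of each tested member of 14 gene lists (horizontal axis), with the number tested in brackets and a black bar at the list's median. Dark blue points passed both thresholds, light blue points had an adjusted p-value under 0.05 with a fold change under 1.5, and the vertical scatter within a list carries no value. The adhesion, chemokine and cytokine lists have members from −0.63 to −1.89 that were called, and the AP-1 list is centred at 0.02.

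AP-1 subunits and other immediate early genes, which MAP kinases switch on within minutes, had no called member among 18 and 19 tested, with medians of 0.02 and 0.02. *Jun* was at 213 ± 6.08 CPM in NT and 207 ± 3.07 CPM in IFT88siRNA (−0.04, standard error 0.0428, adjusted p = 0.673), and *Junb* (0.04, adjusted p = 0.756) and *Fosl2* (0.08, adjusted p = 0.333) did not pass either. *Fos* was at 49.2, 53.3 and 53.6 CPM in NT and at 34.6, 35.7 and 43.7 CPM in IFT88siRNA (−0.46, adjusted p = 0.0187). *Egr1* was at 509.6, 518 and 549 CPM against 352, 362 and 426 CPM (−0.47, adjusted p = 0.00594). For both genes the groups were apart, under the fold threshold. *Egr4* (−0.53, adjusted p = 0.0183), *Arc* (−0.31, adjusted p = 0.0389) and *Ier2* (−0.26, adjusted p = 0.032) were also lower under that threshold. Among 16 MAP kinase phosphatases and Sprouty genes, which restrain the same pathway, none was called. *Spry2* was at 68.7, 68.0 and 66.7 CPM in NT and at 47.3, 45.3 and 43.9 CPM in IFT88siRNA (−0.58, standard error 0.0512, adjusted p = 0.000233), just under the fold threshold, while *Dusp1* was higher in IFT88siRNA at 103 ± 3.23 CPM against 85.5 ± 3.89 CPM (0.27, adjusted p = 0.0197).

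Of 46 tested interferon-stimulated genes, 1 was called lower, beside 0.462% of all tested genes, and none higher. In 45 the log2 fold change was below 0, with a median of −0.27. Of all tested genes, 48.9% were below 0, with a median of 0.00. Only *Gbp5*, a guanylate-binding protein, was called, at 22.9, 19.5 and 23.6 CPM in NT against 16, 12.1 and 15.8 CPM in IFT88siRNA (−0.59, standard error 0.111, adjusted p = 0.0193), and its call was lost without any 1 of NT replicates 1 and 3 and IFT88siRNA replicates 1 and 2 (adjusted p between 0.067 and 0.122). *Gbp3* (−0.44, adjusted p = 0.024), *Irf7* (−0.38, adjusted p = 0.02), *Oas3* (−0.29, adjusted p = 0.0399) and *Bst2* (−0.23, adjusted p = 0.0314) were lower under the fold threshold. In 15 members the groups did not overlap with IFT88siRNA lower, which is 15 of 46 beside the 11% of all tested genes, and in 1, *Ifit2*, with IFT88siRNA higher. The transcripts of interferon-β itself (*Ifnb1*, −0.55, adjusted p = 0.202) and of *Mx1* (−0.74, adjusted p = 0.319) did not pass.

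Growth factor and matrix genes gave further calls. *Fgf2*, a matrix-bound growth factor of cartilage, was at 72.8, 52.7 and 83.8 CPM in NT and at 36, 31.1 and 48.1 CPM in IFT88siRNA (−0.86, standard error 0.167, adjusted p = 0.0209). It was the 1 called gene of 8 tested FGF ligands and receptors, beside 0.462% of all tested genes called lower. *Fgf2* overlaps *Nudt6* on the other strand (−0.27). Its call was lost without any 1 of NT replicates 1 and 3 and IFT88siRNA replicates 1 and 2 (adjusted p between 0.0638 and 0.144). Of 25 BMP, activin, TGFβ and ID genes, 2 were lower and none higher, with a median of 0.01. Of all tested genes, 0.462% were called lower and 0.0339% higher. *Gdf15*, a stress-induced member of the TGFβ family, was at 32.7, 35.6 and 37.3 CPM against 20.6, 20.3 and 24.8 CPM (−0.69, adjusted p = 0.00298). *Inhba*, the activin A subunit, was at 600.0 ± 36.3 CPM in NT and 420.3 ± 24.7 CPM in IFT88siRNA (−0.52, adjusted p = 0.00092), and *Id2* (0.35, adjusted p = 0.0235) and *Tgfb3* (0.25, adjusted p = 0.0266) were higher, all under the fold threshold.

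Of 15 tested cartilage matrix genes, 13 were below 0, 2 were lower and none was higher, with a median of −0.20. Of all tested genes, 48.9% were below 0 and 0.462% were called lower. *Col10a1*, the collagen of hypertrophic chondrocytes, was at 22.9, 24.1 and 24.8 CPM in NT and at 13.9, 13.5 and 14.1 CPM in IFT88siRNA (−0.80, standard error 0.0711, adjusted p = 0.000238). *Col2a1*, the main cartilage collagen, was at 8.92, 8.11 and 9.24 CPM against 4.84, 5.22 and 6.98 CPM (−0.62, standard error 0.14, adjusted p = 0.0397), and lost its call without any 1 of NT replicates 1 and 3 and IFT88siRNA replicates 1 and 2 (adjusted p between 0.116 and 0.203). *Has2*, a hyaluronan synthase, was lower under the fold threshold, at 77.9 ± 4.22 CPM against 106 ± 6.70 CPM (−0.45, adjusted p = 0.00352). *Cemip*, which binds and helps to degrade hyaluronan, was called lower at 10.1, 11.6 and 11 CPM against 5.26, 4.85 and 6.82 CPM (−0.95, adjusted p = 0.00506). Among 23 tested matrix metalloproteinases, ADAMTS genes and TIMPs none was called, and the median was 0.02. The aggrecanase gene *Adamts4* was at 16.1 ± 2.12 CPM in NT and 12.3 ± 0.521 CPM in IFT88siRNA (−0.39, adjusted p = 0.0684). *Adamts5* was at 0.12 (adjusted p = 0.582), and *Timp1*, a protease inhibitor, was lower at −0.36 (adjusted p = 0.00594). *Tnfrsf11b*, which encodes osteoprotegerin, the decoy receptor of RANKL, was called lower at 45.8, 41.7 and 46.5 CPM against 31.2, 27.5 and 28.7 CPM (−0.62, adjusted p = 0.000876), and was picked after its values were seen.

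Among 25 genes of the ATF4 and ER stress pathways none was called and 19 were below 0 (median −0.12), beside 48.9% of all tested genes. *Slc7a11*, the cystine transporter, was at −0.49 (adjusted p = 0.0157). None of 25 mitosis genes (median −0.05) or 30 DNA replication genes (median 0.04) was called.

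Several of the largest falls lay outside these lists. *Pappa2*, a protease that frees IGF from its binding proteins, was at 11.9, 14.5 and 12.4 CPM in NT and at 6.43, 5.72 and 6.66 CPM in IFT88siRNA (−1.05, standard error 0.111, adjusted p = 0.00081). *Cndp2*, a cytosolic dipeptidase, was at 21.9, 26.5 and 24.1 CPM against 12.6, 12.2 and 13.5 CPM (−0.93, adjusted p = 0.000399). *Pbx4*, a homeobox gene, had a log2 fold change of −1.01 (9.20 ± 1.82 CPM in NT and 4.58 ± 0.779 CPM in IFT88siRNA, adjusted p = 0.00863). *Efr3b* had one of −0.95 (15.4 ± 4.80 CPM and 7.97 ± 2.08 CPM, adjusted p = 0.0399) and *Hist1h1d*, a linker histone gene from a family of close copies, one of −0.91 (5.23 ± 1.05 CPM and 2.78 ± 0.619 CPM, adjusted p = 0.0314). *Efr3b* and *Hist1h1d* lost their calls without any 1 of NT replicates 1 and 3 and IFT88siRNA replicates 1 and 2 (adjusted p up to 0.218 and 0.167), and *Pbx4* without NT replicate 1 (0.0608) or IFT88siRNA replicate 2 (0.0651). Among the noncoding genes, the imprinted *H19* was at 5.72 ± 0.631 CPM and 3.50 ± 0.196 CPM (−0.71, adjusted p = 0.0183), *Malat1* at 178 ± 27.7 CPM and 114 ± 26.4 CPM (−0.65, adjusted p = 0.0427) and *Gm45640* at 2.90 ± 0.35 CPM and 1.61 ± 0.221 CPM (−0.85, adjusted p = 0.0355). All 3 lost their calls without NT replicate 1 or IFT88siRNA replicates 1 or 2, and *H19* and *Gm45640* also without NT replicate 3, with adjusted p-values of at most 0.108 for *H19*, 0.179 for *Malat1* and 0.169 for *Gm45640*. Picked after their values were seen for small errors, *Arhgap36*, a GTPase-activating protein family member, was at 509.7 ± 17.9 CPM and 305 ± 16.1 CPM (−0.74, adjusted p = 3.89e-05). *Atp6v1b2*, a subunit of the vacuolar proton pump picked likewise, was at 126 ± 8.09 CPM and 72.3 ± 4.46 CPM (−0.81, adjusted p = 7.78e-05).

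Few genes were higher in IFT88siRNA. *Scara5*, a scavenger receptor that takes up ferritin, was at 13.6, 19.5 and 14.5 CPM in NT and at 31.3, 32.7 and 25.2 CPM in IFT88siRNA (0.90, standard error 0.133, adjusted p = 0.00609). *Serpina3n*, a serine protease inhibitor, was at 1.36, 1.69 and 1.42 CPM against 3.13, 3.16 and 2.54 CPM (0.97, adjusted p = 0.02). *Gdpd2* was at 2.61, 3.05 and 3.82 CPM against 4.68, 5.59 and 5.25 CPM (0.70, adjusted p = 0.0433). None of these groups overlapped. The call of *Serpina3n* was lost without any 1 of NT replicates 1 and 3 and IFT88siRNA replicates 1 and 2 (adjusted p between 0.0648 and 0.111). That of *Gdpd2* was lost without NT replicate 1 or any 1 IFT88siRNA library (adjusted p between 0.0771 and 0.208). Another higher call, *Ftl2-ps*, a processed pseudogene of the ferritin light chain that shares reads with its close copies, had a mean of 10.2 counts and is uncertain (0.154 ± 0.0609 CPM in NT and 0.72 ± 0.208 CPM in IFT88siRNA).

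Genes were also grouped by how they responded to IL-1β in NT libraries at 1 h and 4 h against 0 h, so that no library of the 2 h comparison formed the groups. Of 3046 tested genes that IL-1β raised at 1 h or 4 h by the same 2 thresholds, 38 were lower in IFT88siRNA at 2 h (1.25%, against 0.462% of all tested genes) and 4 were higher. Of 2371 genes that IL-1β lowered at either time, 17 were lower (0.717%), and of 9129 genes that were neither raised nor lowered, 11 were lower (0.12%). With a threshold of 3-fold for the response to IL-1β, the shares were 2.47% of 930 raised genes and 2.40% of 208 lowered genes. Genes raised at 1 h alone had a median log2 fold change of 0.06 at 2 h, with 37.0% of 748 below 0, whereas genes raised at 4 h alone had a median of −0.09, with 71.2% of 1618 below 0. The 680 genes raised at both times had a median of −0.03 and held 14 lower genes (2.06%), among them *Icam1*, *Vcam1* and *Ccl20*. Per library, the mean log2 CPM of the genes raised at 4 h alone was 4.38, 4.28 and 4.42 in NT and 4.25, 4.21 and 4.32 in IFT88siRNA, so NT replicate 2 lay within the IFT88siRNA range. The difference of −0.10 was −0.14 without NT replicate 2. The genes raised at 1 h alone were at 3.87, 3.86 and 3.85 in NT and at 3.90, 3.93 and 3.89 in IFT88siRNA, which do not overlap.

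Differences at 2 h were next set beside those at 0, 1 and 4 h in a model of all 36 libraries. Of the 68 genes lower at 2 h, 15 were also called lower at 0 h (beside 0.952% of 16710 tested genes), 39 at 1 h (1.59%) and 19 at 4 h (0.497%), and their median log2 differences were −0.42, −0.71 and −0.54. At 0 h 56 of the 68 were below 0, at 1 h 67 and at 4 h 65. The medians of all tested genes at these times were −0.0047, −0.00213 and 0.00012. *Il1rl1*, *Fgf2*, *Col2a1*, *Cndp2* and *Ergic2*, a gene of the early secretory pathway, were called lower before IL-1β, with log2 differences at 0 h of −1.18, −0.86, −0.76, −0.75 and −0.65. The adhesion and chemokine genes were not. *Icam1* was at 3.54 ± 0.216 CPM in NT and 3.05 ± 0.388 CPM in IFT88siRNA at 0 h (−0.21, adjusted p = 0.591), then at 36.1 ± 7.04 and 11.7 ± 1.16 CPM at 1 h (−1.63, adjusted p = 2.05e-11) and at 143 ± 13.2 and 82.1 ± 8.93 CPM at 4 h (−0.80, adjusted p = 8.42e-07). Its difference at 2 h did not depart from that at 1 h (interaction 0.60, standard error 0.16, adjusted p = 0.111) or 0 h (−0.82, standard error 0.238, adjusted p = 0.079) past the threshold. *Ccl20* differed by −0.98 at 1 h and −0.77 at 4 h, and *Cxcl2* by −1.41 and −1.15, with at most 0.243 ± 0.0733 CPM (*Ccl20*) and 0.0289 ± 0.025 CPM (*Cxcl2*) at 0 h. *Tnf* was highest at 1 h, at 12.3 ± 0.955 CPM in NT and 4.97 ± 1.16 CPM in IFT88siRNA (−1.30, adjusted p = 4.95e-07), and was at 4.08 ± 1.04 and 2.01 ± 0.317 CPM at 4 h (−1.0, adjusted p = 0.00312).

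**Figure D4:**
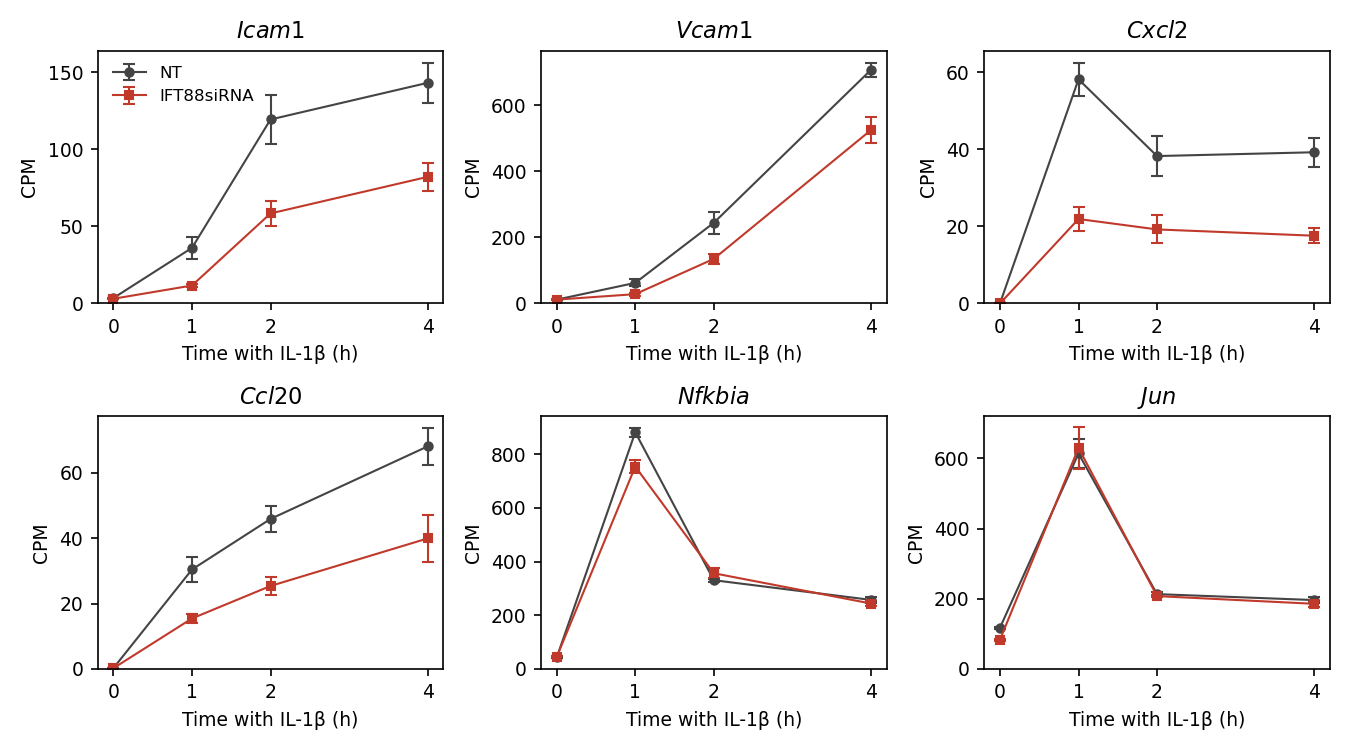
Mean CPM ± SD (n = 3 libraries) of 6 genes at 0, 1, 2 and 4 h of IL-1β in NT (grey circles) and IFT88siRNA (red squares), on linear axes from 0. *Icam1*, *Vcam1*, *Cxcl2* and *Ccl20* are below NT at 1, 2 and 4 h, while *Jun* at 213 and 207 CPM is close in both groups at 2 h and *Nfkbia*, at 882 and 754 CPM at 1 h, is no longer below NT at 2 h.

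The difference between the siRNA groups at 2 h departed from that at 0 h in 41 genes (0.245% of 16710 tested), with 36 below and 5 above the 0 h difference, and 5 of the 41 were among the 73 genes called at 2 h. All 36 genes with a drop had a log2 difference above 0 at 0 h, and 17 of them were called higher there. The median of all tested genes at 0 h was −0.0047. The interaction subtracts the 0 h difference, so choosing genes by a drop favours those above 0 at 0 h. In the same model, 6 of the 36 were called lower at 2 h, beside 122 of all 16710 tested genes. *Sox9*, the master transcription factor of chondrocytes, was at 22 ± 0.984 CPM in NT and 33.8 ± 1.79 CPM in IFT88siRNA at 0 h and at 74.4 ± 5.03 and 63.0 ± 3.21 CPM at 2 h (interaction −0.85, standard error 0.0956, adjusted p = 2.22e-06). *Tlr2*, a receptor for bacterial lipopeptides, went from 22.5 ± 0.606 and 27.6 ± 0.776 CPM to 995 ± 14.8 and 785 ± 38 CPM (interaction −0.64, adjusted p = 7.94e-05). *Vcam1* was at 11.6 ± 0.726 and 11.6 ± 0.518 CPM at 0 h, and was the adhesion gene with a called interaction (−0.86, standard error 0.172, adjusted p = 0.00603). *Slc7a2* crossed from above NT to below it, at 87.9 ± 4.36 and 109 ± 5.06 CPM at 0 h (interaction −0.83, adjusted p = 2.67e-06), and so did *H19*, at 1.56 ± 0.078 and 2.48 ± 0.187 CPM at 0 h (interaction −1.38, adjusted p = 0.000309). The 5 genes on the other side were *Fosl1* and *Atf3*, which are AP-1 family members, *Dusp8*, *Ripor2* and *Gm15583*. *Atf3* was at 23.9 ± 0.797 CPM in NT and 11.7 ± 0.723 CPM in IFT88siRNA at 0 h and at 71.4 ± 2.76 and 63.4 ± 1.43 CPM at 2 h (interaction 0.86, standard error 0.152, adjusted p = 0.00186). Without IFT88siRNA replicate 2 of the 2 h libraries, 26 genes departed.

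**Figure D5:**
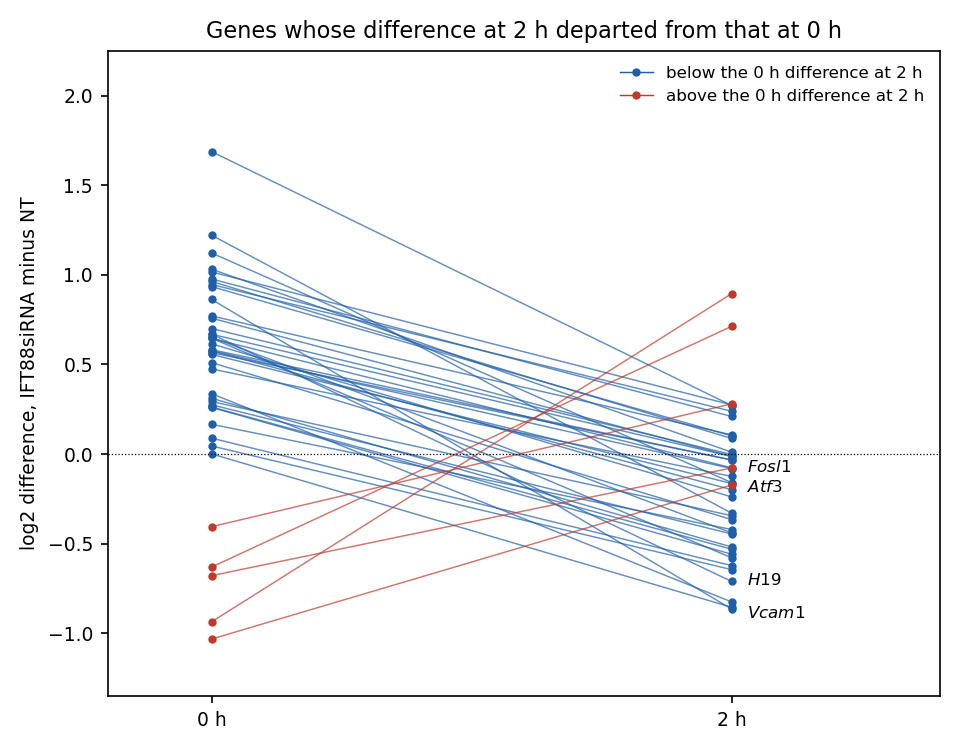
Log2 difference of IFT88siRNA minus NT at 0 h and at 2 h for the 41 genes whose 2 differences departed from each other, 1 line per gene. The 36 blue lines start above 0 and drop, and the 5 red lines start below 0 and rise.

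Against 1 h, 7 genes departed (0.0419% of those tested). *Prag1*, *Fam110c* and *Efna1* were below their 1 h difference at 2 h, and *Klf10*, *Snai1*, *Bcl3* and *Smad7* were above it. *Klf10*, a TGFβ-induced Krüppel-like factor, was at 219 ± 20.9 CPM in NT and 167 ± 14.5 CPM in IFT88siRNA at 1 h, and at 213 ± 5.82 and 247 ± 3.38 CPM at 2 h (interaction 0.60, standard error 0.0818, adjusted p = 0.000233). *Bcl3*, an atypical IκB protein, was at 16.8 ± 1.94 and 10.5 ± 0.623 CPM at 1 h and at 28.4 ± 4.17 and 28.0 ± 3.41 CPM at 2 h (interaction 0.65, adjusted p = 0.0277). *Prag1* was at 8.68 ± 1.34 and 9.08 ± 0.504 CPM at 1 h and was called lower at 2 h (38.2 ± 5.34 and 24.4 ± 3.20 CPM, interaction −0.71, adjusted p = 0.0277). Without IFT88siRNA replicate 2, no gene was called below its 1 h difference, *Prag1* included. Only 1 gene was called on that side without NT replicate 1, and 1 without IFT88siRNA replicate 1. Against 4 h, 2 genes departed (0.012%). *Atp2b4*, a plasma membrane calcium pump, was at 48.4 ± 5.48 CPM in NT and 30.2 ± 3.03 CPM in IFT88siRNA at 2 h and at 148 ± 5.10 and 148 ± 11.5 CPM at 4 h (interaction −0.67, standard error 0.125, adjusted p = 0.0176). *Nr3c2*, the mineralocorticoid receptor gene, was at 12.1 ± 0.26 and 14.9 ± 1.23 CPM at 2 h and at 10.0 ± 1.36 and 5.74 ± 1.14 CPM at 4 h (interaction 1.11, standard error 0.16, adjusted p = 0.000514). Leaving out 1 library of the 2 h comparison gave between 4 genes (without NT replicate 1 or IFT88siRNA replicate 1) and 14 genes (without NT replicate 2) against 1 h, and against 4 h 7 genes without NT replicate 2, 5 without IFT88siRNA replicate 3 and 1 without any other library. *Atp2b4* was not called without NT replicate 1, NT replicate 3, IFT88siRNA replicate 1 or IFT88siRNA replicate 2.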

How the data were processed

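RNA was sequenced from poly(A) libraries of NT and IFT88siRNA cells, and the 6 libraries at 2 h of IL-1β were compared. The authors aligned the reads to GRCm38 with HISAT2 (version 2.1.0) and deposited whole-number counts per gene from featureCounts (Subread 1.6.3, default parameters, which count without strand). TPM, from Salmon (version 0.9.1), was deposited too. Tests used edgeR 4.0.16 under R 4.3.3 (TMM, filterByExpr, quasi-likelihood F-test, two-sided, Benjamini-Hochberg adjustment). The standard error is the absolute log2 fold change over the square root of its F-statistic. Depth was 21051739 to 27099885 counts per library, whose precision covers counting error only. Gene coordinates came from GENCODE for GRCm38 and promoters from RefSeq (GRCm38.p6).

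The genes named were the 12 largest falls and rises among protein-coding calls with non-overlapping groups and a mean of at least 50 counts, the 3 largest of other classes, and members of lists. Members and lists were chosen with earlier results of these data known. Interactions used 1 model of 36 libraries. Alternatives were DESeq2 1.42.0, other scalings, no filter, no fold threshold, the replicate block, 36 libraries, each library left out, and TPM with limma 3.58.1 (pseudocounts of 1 and 0.1, minimum TPM of 1 in 3 libraries). On simulated data for the 2 h comparison, 99.5% of 200 genes changed by a log2 of 1 were recovered among 14566 genes, with 4 false calls, and for the interaction with 0 h 96.0% among 16475 genes, with 3. The changed genes were drawn from those with a mean of at least 50 counts, whereas 12 of the 73 calls had fewer. Counts were drawn independently per library, so these shares do not cover a deviating library such as NT replicate 2. Python 3.11.15 and matplotlib 3.10.9 made the figures. Some genes that met the naming rule or belong to the lists are not reported here.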

Additional observations from a re-analysis of the deposited data

Results flagged for a closer look

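The difference between IFT88siRNA and NT at 2 h departed from that at another time point in 15 genes of the lists and of the naming rule, by edgeR's interaction test at adjusted p under 0.05 where the ratio passed 1.5-fold. Against 0 h, the log2 difference at 2 h was lower by an interaction of −1.38 in *H19* (adjusted p = 0.000309), −1.22 in *Tnfsf10*, the gene of the death ligand TRAIL (adjusted p = 0.0436), −0.86 in *Vcam1* (adjusted p = 0.00603), −0.85 in *Sox9* (adjusted p = 2.22e-06) and −0.83 in *Slc7a2* (adjusted p = 2.67e-06). It was also lower by −0.77 in *Fmod*, the gene of the matrix proteoglycan fibromodulin (adjusted p = 0.0221), −0.74 in the protease gene *Adamts9* (adjusted p = 0.000309), −0.71 in *Il15* (adjusted p = 0.0157) and −0.66 in the transcription factor gene *Sox4* (adjusted p = 0.0261). It was higher by 0.86 in *Atf3* (adjusted p = 0.00186), 0.69 in the MAP kinase phosphatase gene *Dusp8* (adjusted p = 5.38e-05) and 0.60 in *Fosl1* (adjusted p = 2.08e-05). Against 1 h, it was higher by 0.66 in *Smad7*, an inhibitor of TGFβ signalling (adjusted p = 0.0019), 0.65 in *Bcl3* (adjusted p = 0.0277) and 0.60 in *Klf10* (adjusted p = 0.000233). In each of these genes 3 libraries per condition entered the test. *Fmod* and *Sox4* had 2 h levels close to NT (19.8 ± 0.538 against 19.6 ± 2.69 CPM and 33.7 ± 2.54 against 36.3 ± 2.80 CPM) and were above NT at 0 h (8.64 ± 0.535 against 14.6 ± 1.15 CPM and 47.9 ± 4.56 against 81.8 ± 16.7 CPM).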

How the results depend on the processing

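Main counts at 2 h were 68 lower and 5 higher genes. They became 123 and 14 without a filter, 284 and 123 without the fold threshold, 122 and 20 with all 36 libraries, 19 and 9 on log2(TPM + 1), 18 and 10 with a pseudocount of 0.1, and 4 and 7 on log2(TPM + 1) without a filter, where 1 call was shared with the main 73 and higher genes outnumbered lower ones. DESeq2 gave 59 and 6 and shared 55 calls with the main 73, and size factors gave 66 and 5. Leaving out each library gave 21 to 190 lower and 1 to 18 higher genes. *Ift88* stayed below NT throughout and lost its call on TPM without a filter (−1.52, adjusted p = 0.0864, limma). No named gene changed direction under any alternative. Of the 29 other named genes, 13 kept their call without each library, 26 with DESeq2 and 4 on log2(TPM + 1), where 24 lost it. Same-numbered libraries deviated together with r = −0.168, 0.214 and 0.49, so the numbers were not taken as pairs, and the replicate block gave 109 lower and 10 higher genes.

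The interaction counts of 41 (0 h), 7 (1 h) and 2 (4 h) became 85, 66 and 10 without a filter and 208, 41 and 9 without the fold threshold, and 2 and 1 for 1 h and 4 h with the 12 libraries of the times compared. DESeq2 gave 1 against 4 h. Leaving out a library gave 26 to 60, 4 to 14 and 1 to 7. The replicate block gave 48, 9 and 2. The median of IL-1β-raised genes moved from −0.04 to −0.14 with a threshold of 3-fold. The shift of genes raised at 4 h alone ranged from −0.14 to −0.07 without 1 library, an alternative chosen after seeing the data. The cause of these moves was not tested. Genes with few counts, such as *Sele*, are limited by depth.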
